A study of Homo sapiens with 14 samples.

Results

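The genes SKI and SKIL were examined for peaks of the SKI protein and of RUNX1 in HL60 cells, an established line from acute myeloid leukaemia, by chromatin immunoprecipitation followed by sequencing (ChIP-seq). Every peak whose deposited nearest-transcript gene name was SKI or SKIL was taken, which gave 37 of 88872 listed peaks, 30 of them at SKI (ENSG00000157933) and 7 at SKIL (ENSG00000136603). The CRISPR/Cas9 control cells (SKI antibody, 1 list) gave 10 of 14019 peaks. The unmodified cells gave 11 of 54841 peaks in SKI replicate 1, 10 of 14431 peaks in SKI replicate 2, and 6 of 5581 peaks with the RUNX1 antibody. No treatment of the cells is stated beyond routine culture, and the labels do not say whether the control cells are 1 clone. The series has 14 samples, and the other 10, among them cells with SKI deleted and antibody controls, were not analysed here. Signal that would persist without SKI protein was therefore not assessed. Each list is 1 sample, so no test between samples was possible and the values below are descriptions.

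SKI and SKIL (also called SnoN) are related corepressors. They bind SMAD2, SMAD3 and SMAD4, the proteins that carry the TGF-beta signal to the nucleus, and bring SIN3A and histone deacetylases to their targets. SKIL is known as a TGF-beta target gene that is held back by SKIL protein and SMAD4 at its own promoter, so the loop closes on itself. RUNX1 binds DNA directly together with CBFB and is needed to form blood cells. The question was whether SKI occupies its own gene and that of its relative, and whether RUNX1 is found at the same positions.

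The promoter of SKIL is shown because the strongest SKI peak of both genes covered a start site of SKIL. RefSeq gives the 250 bases before the start of SKIL on the plus strand of GRCh38.p14, chr3:170357465-170357714, and capitals mark the motif matches.
SKIL promoter: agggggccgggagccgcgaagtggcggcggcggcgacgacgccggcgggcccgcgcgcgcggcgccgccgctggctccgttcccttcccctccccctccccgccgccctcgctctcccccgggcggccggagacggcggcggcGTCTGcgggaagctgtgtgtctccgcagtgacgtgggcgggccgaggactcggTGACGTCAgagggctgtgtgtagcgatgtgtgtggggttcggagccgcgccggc
Both strands were searched for 4 motifs. The SMAD box CAGAC occurred 1 time, as GTCTG starting at -107 from the start, and 38.0% of 35116 promoter windows of the same length held it. The cAMP response element TGACGTCA occurred 1 time, starting at -54, and 1.65% of the windows held it. The RUNX core TGTGGT and the SMAD palindrome GTCTAGAC were not in this window, and 10.98% and 0.182% of the windows held them. The window was 78.4% G and C, against a median of 58% over all promoters. No match overlapped another. The peaks are on hg19, so this start was not matched to the start site under the peak. From a start site rebuilt on hg19, the SKI summits lay at -406, -628 and -555 bp and the RUNX1 summit at -432 bp. The window of 250 bases was not shown to hold any of them. A motif missing from it was therefore not read as missing under the peaks. Of the 2 genes, 1 had a promoter in the table.

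The list of SKI in unmodified cells, replicate 1, stands apart at SKI. Its deposited row numbers run to 75197 with 20357 numbers skipped, and 3 of these lie between 2137275 and 2171564 on chromosome 1 (hg19), where the list has no peak. That stretch of 34289 bp holds the start of SKI, 5 SKI peaks of the control cells, 4 SKI peaks of unmodified cells, replicate 2, and 2 RUNX1 peaks. Beside SKIL on chromosome 3, 1 number is skipped between 170028515 and 170068253, and 3 between 170079202 and 170131854. No list has a peak inside either of these. Of the control-cell peaks without a counterpart in replicate 1, 93.8% of 353 lay where numbers were skipped, as did 97.1% of 373 such peaks of replicate 2. Of all intervals between neighbouring peaks of replicate 1, 23.9% skip a number. That share counts each interval once whatever its length, so it is not a matching background for the shares of peaks. Because of the skipped numbers, a missing peak of replicate 1 at the start of SKI was not read as missing binding. The lists hold no expression values, so the cell type was not checked against marker genes. Median tags per peak were 61 in control cells, 97 and 56 in unmodified cells and 56 for RUNX1, and library depth is not given in the sources used here.

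SKIL carried 1 of the strongest SKI peaks of every list, over its promoter. Fold enrichment, the signal of a peak over background as the authors' files give it, was 239 in control cells, and 189 and 218 in unmodified cells, replicates 1 and 2. These values ranked 2 of 14019, 6 of 54841 and 1 of 14431. Rank 6 was shared with a peak at AF224669.3 and rank 1 with a peak at OR1D4. The SKIL peak had 1461 tags in control cells, and 3179 and 1843 tags in unmodified cells, which ranked 5, 7 and 1 by tag count. All 3 lists thus placed SKIL among their first 7 peaks by either value.

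The SKIL peak was also among the widest. On chromosome 3 (hg19) it spanned 170073644 to 170076414 in control cells (2771 bp), 170073465 to 170076733 in unmodified cells, replicate 1 (3269 bp), and 170073932 to 170076460 in replicate 2 (2529 bp). Its width ranked 34, 625 and 6 in the lists, whose median widths were 691, 710 and 472 bp. The summits lay at -406, -628 and -555 bp from the transcription start site (TSS) of ENST00000477216, which was rebuilt from the deposited distances at 170075467. The deposited distances of these peaks were -428, -136 and -555 bp, so that of unmodified cells, replicate 1, was not measured from the listed summit. The highest points were 222 bp apart at most, all upstream of that TSS, and each peak covered it.

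**Figure D1:**
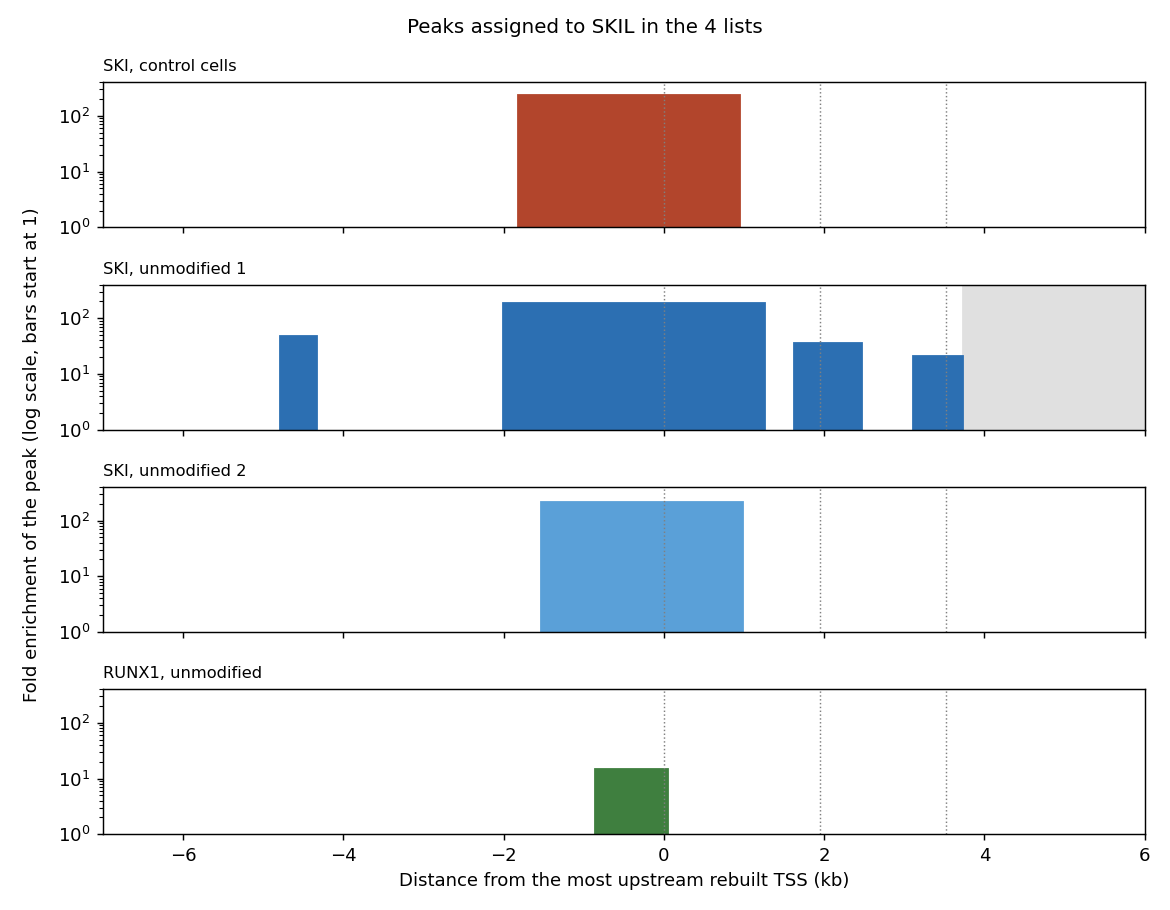
Peaks assigned to SKIL in the 4 lists, as bars from peak start to peak end (x, distance in kb from the rebuilt TSS of ENST00000477216) with fold enrichment as height (y, log scale, from 1). Dotted lines are rebuilt TSSs and grey marks skipped row numbers of unmodified cells, replicate 1. The promoter peak is in all 4 lists, with fold enrichments of 239, 189 and 218 for SKI and 14.7 for RUNX1.

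Beside the promoter peak, unmodified cells, replicate 1, had 3 narrower SKI peaks at SKIL that the other lists lacked. Fold enrichment was 48.2 at -4572 bp, 36.5 at 2186 bp and 21.2 at 3330 bp, with 81, 91 and 68 tags. The tag counts lie below the median of that list, 97, and the fold enrichments lie above its median of 18.82. In control cells and in unmodified cells, replicate 2, the promoter peak was the sole peak assigned to SKIL.

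SKI itself carried more SKI peaks than SKIL in every SKI list, spread from 2158680 to 2243312 on chromosome 1. Control cells had 9 peaks, and unmodified cells had 7 in replicate 1 and 9 in replicate 2. Among the genes with a peak, 0.201% had at least as many peaks as SKI in control cells, and in unmodified cells 4.21% (replicate 1) and 0.234% (replicate 2). The median gene had 1, 2 and 1 peaks. SKI ranked 14 of 9437, 696 of 24414 and 17 of 9408 genes. By contrast, every gene listed in control cells and in replicate 2 had at least the 1 peak of SKIL. Replicate 1 is both the longest list and the one with skipped row numbers, and their part in its lower rank was not tested.

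**Figure D2:**
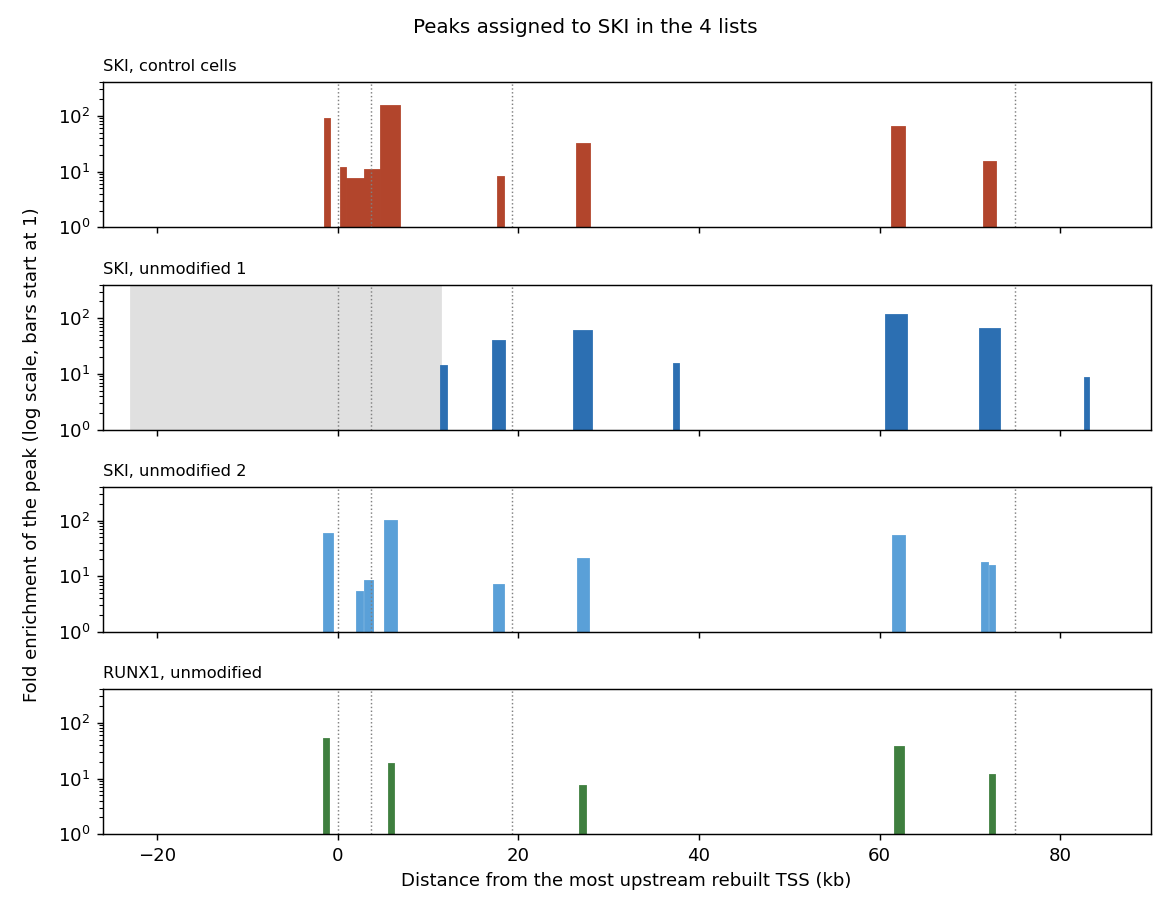
Peaks assigned to SKI in the 4 lists, as bars from peak start to peak end (x, distance in kb from the rebuilt TSS of ENST00000378536) with fold enrichment as height (y, log scale, from 1). Dotted lines are rebuilt TSSs and grey marks the 34289 bp in which the list of unmodified cells, replicate 1, skips 3 row numbers. The 5 RUNX1 peaks stand where SKI peaks stand.

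The first strong SKI peak of the gene lay upstream of its most upstream TSS (ENST00000378536, rebuilt at 2160130) and was classed as TSS by the authors. In control cells it spanned 2158713 to 2159321 with its summit at -1127 bp, 221 tags and a fold enrichment of 89.6, rank 103. In unmodified cells, replicate 2, it spanned 2158680 to 2159596 with its summit at -1099 bp, 346 tags and a fold enrichment of 57.4, rank 192. The summits were 28 bp apart. The TSS itself was outside this peak, and the nearest peak on the other side, of control cells at 751 bp, had a fold enrichment of 11.7 and 42 tags.

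The strongest SKI peak of the gene in both these lists was inside it, 2098 and 2073 bp past the TSS of ENST00000508416 by the deposited distance. In control cells it spanned 2164922 to 2167093 with its summit at 6005 bp, a fold enrichment of 149.9 (rank 12) and 1776 tags, which ranked 2 in the list. In unmodified cells, replicate 2, it spanned 2165388 to 2166664 with its summit at 5767 bp, a fold enrichment of 100.01 (rank 38) and 1101 tags, rank 4. The authors' position class was TSS in control cells and intron in replicate 2.

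By tags, the order of the strongest peaks of SKI and SKIL differed between these lists. The SKI peak took 0.141% of all listed tags in control cells (95% Wilson interval 0.135 to 0.148) and the SKIL peak 0.116% (0.110 to 0.122). In unmodified cells, replicate 2, these shares were 0.0992% (0.0936 to 0.105) and 0.166% (0.159 to 0.174). The intervals cover counting error only, and each condition is 1 list here. By fold enrichment SKIL was above SKI in all 3 lists.

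Weaker SKI peaks lay between these sites. At about 2.4 kb the fold enrichment was 7.44 in control cells and 5.17 in unmodified cells, replicate 2, and at about 3.5 kb it was 10.7 and 8.35. These values were under the list medians of 11.63 and 10.35.

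Further into the gene, 4 SKI sites were present in all 3 lists, all of them classed by the authors as intron but the one at 18 kb, which was classed as TSS. At 62 kb, fold enrichment was 63.7 in control cells, and 114 and 52.3 in unmodified cells, replicates 1 and 2, and ranked 246, 628 and 230. This was the strongest SKI peak of the gene in replicate 1, with 1522 tags, against 531 in control cells and 364 in replicate 2. At 27 kb the values were 31.4 in control cells, and 57.8 and 20.2 in unmodified cells.

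At 72 kb the values were 14.95 in control cells and 62.9 in unmodified cells, replicate 1, and replicate 2 had a pair of adjoining peaks of 17.1 and 15.4. The site at 18 kb was weak in the shorter lists, with 7.88 in control cells, and 39.7 and 6.92 in unmodified cells. Summits of the 3 lists lay within 49 bp of each other at 18 kb and within 168 bp at 62 kb. At 27 kb they lay 26 bp apart between control cells and replicate 2, and replicate 1 lay up to 611 bp away. At 72 kb the first of the adjoining peaks of replicate 2 lay 746 bp from the summit of control cells, and the second lay 6 bp from it and 31 bp from that of replicate 1.

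The genes differed in how near their peaks lay to a TSS. At SKIL, 3 of 4 peaks of unmodified cells, replicate 1, and the single peak of each other list were within 1000 bp of one. At SKI this held for 2 of 9 peaks in control cells, for 0 of 7 and 1 of 9 in unmodified cells, and for 0 of 5 RUNX1 peaks. Over both genes it held for 3 of 10 in control cells, beside 43% of that list, and 3 of 11 and 2 of 10 in unmodified cells, beside 30% and 48.5%. For RUNX1 it was 1 of 6, that of SKIL, beside 19.4%. Replicate 1 skips row numbers in the stretch that holds the start of SKI. Its counts of 0 of 7 and 3 of 11 were therefore not read as a lack of peaks near a TSS.

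Joined over the lists, the SKI peaks formed 12 sites at SKI and 4 at SKIL. Of these 16 sites, 5 were in all 3 lists, 4 in 2 lists and 7 in 1 list, where 16.3% of all SKI sites were in every list. All 4 sites found in 2 lists lacked replicate 1 and lay where its row numbers are skipped. Without unmodified replicate 1, 8 sites at SKI were shared by the remaining lists, against 4 with it. Of the 10 member peaks of control cells, 9 overlapped a peak of unmodified cells, replicate 2, beside 69.3% of that list, and 5 overlapped one of replicate 1, beside 97.5%. Of the 10 of replicate 2, 6 overlapped one of replicate 1, beside 97.4%, and the 4 others lie in the stretch of skipped row numbers. Of the 7 sites in 1 list, 6 were of unmodified cells, replicate 1, and 1 was of control cells.

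**Figure D3:**
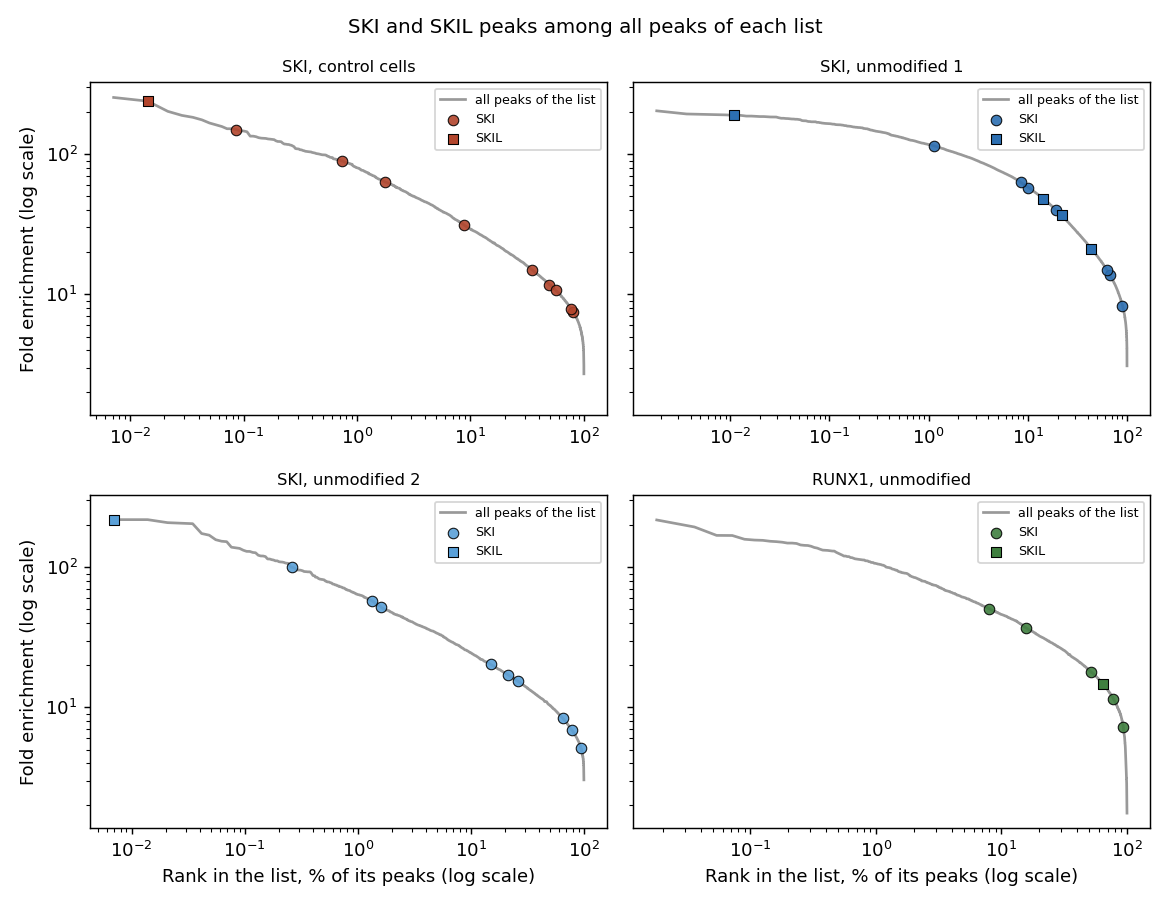
Fold enrichment (y, log scale) against rank in the list as a percentage of its peaks (x, log scale) for all peaks (grey line), peaks at SKI (circles) and peaks at SKIL (squares), 1 panel per list. The SKIL promoter peak lies at the top of each SKI list, at 0.0143%, 0.0109% and 0.00693%, and at 64.5% of the RUNX1 list.

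RUNX1 peaks were found at both genes, 5 at SKI and 1 at SKIL. On chromosome 1, SKI had RUNX1 peaks at 2158661 to 2159201 (summit at -1123 bp), 2165807 to 2166354 (5757 bp), 2186977 to 2187681 (27104 bp), 2221850 to 2222835 (62174 bp) and 2232391 to 2232907 (72572 bp). Their fold enrichments were 50.6, 17.9, 7.28, 37.1 and 11.5, with 98, 55, 37, 246 and 37 tags in the same order. The upstream and the 62 kb peaks were above the list median of 18.32, and the other 3 were below it. SKIL had its RUNX1 peak at 170074605 to 170075517 on chromosome 3 (summit at -432 bp), with a fold enrichment of 14.7 and 49 tags, rank 3597 of 5581.

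SKI was among the genes with most RUNX1 peaks. Of 4297 genes with a RUNX1 peak, 0.582% had 5 or more, and SKI shared rank 15. The RUNX1 peak count of SKIL, 1, was that of the median gene.

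All 6 RUNX1 peaks overlapped a SKI peak of control cells, as 70.7% of all RUNX1 peaks did, and all 6 overlapped one of unmodified cells, replicate 2, as 60.4% did. In replicate 1, 4 of the 6 had an overlap, where 92.9% of the RUNX1 list did, and the 2 without one lie in the stretch of skipped row numbers. Over any SKI list, 6 of 6 overlapped, beside 95.1% of all RUNX1 peaks, so the members stand near the background share.

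Read from the side of SKI, 6 of 10 member peaks of control cells overlapped a RUNX1 peak, beside 27.8% of that list. In unmodified cells it was 4 of 11 in replicate 1, beside 9.21%, and 6 of 10 in replicate 2, beside 23.9%. Of the joined sites, 6 of 16 held a RUNX1 peak, where 9.36% of all SKI sites did, and of those in all 3 lists 4 of 5 did, where 33.5% did.

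Within SKI, the SKI peaks with RUNX1 were the stronger ones. In control cells their fold enrichment ran from 14.95 to 149.9 (5 peaks), against 7.44 to 11.7 without RUNX1 (4 peaks). In unmodified cells, replicate 1, it ran from 57.8 to 114 (3 peaks), against 8.32 to 39.7 (4 peaks). In replicate 2 it ran from 15.4 to 100.01 (5 peaks), against 5.17 to 17.1 (4 peaks). The ranges were apart in the first pair of lists and met in replicate 2 at 1 peak, that of 17.1, which adjoins a peak with RUNX1 at 72 kb. The same tendency held over the whole lists, so it is not particular to SKI. Of the strongest 1% of SKI peaks, 76.4% overlapped a RUNX1 peak in control cells, beside 27.8% of that list. In unmodified cells it was 58.9% in replicate 1, beside 9.21%, and 62.5% in replicate 2, beside 23.9%.

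How far the ranks of SKI and RUNX1 lay apart varied by site, and the lists differ in length. At 62 kb SKI was at rank 246 in control cells (1.75% of that list). In unmodified cells it was at ranks 628 and 230 (1.15% and 1.59%). RUNX1 was there at rank 868 by fold enrichment (15.6%) and at rank 135 by tags, its highest by tags at either gene. At the upstream site of SKI, RUNX1 was at rank 444 (7.96%) and SKI at ranks 103 and 192 (0.735% and 1.33%). At the site near 6 kb, where SKI was at ranks 12 and 38, RUNX1 was at rank 2866, close to the middle of its list. At SKIL, SKI stood at ranks 2, 6 and 1, and the RUNX1 peak was weaker than the median one, at rank 3597. RUNX1 was weaker still at 27 kb (rank 5206, 93.3%) and at 72 kb (rank 4339, 77.7%). SKI was there at ranks 1222 and 4887 in control cells. Among the strongest 1% of SKI peaks, 15.7% of the RUNX1 peaks they overlapped in control cells were as weak as that of SKIL or weaker, as were 16.0% and 17.6% in unmodified cells. Over all SKI peaks of each list these shares were 30.8% in control cells, and 33.2% and 30.6% in unmodified cells. The comparison with the strongest 1% was chosen after these values were seen.

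**Figure D4:**
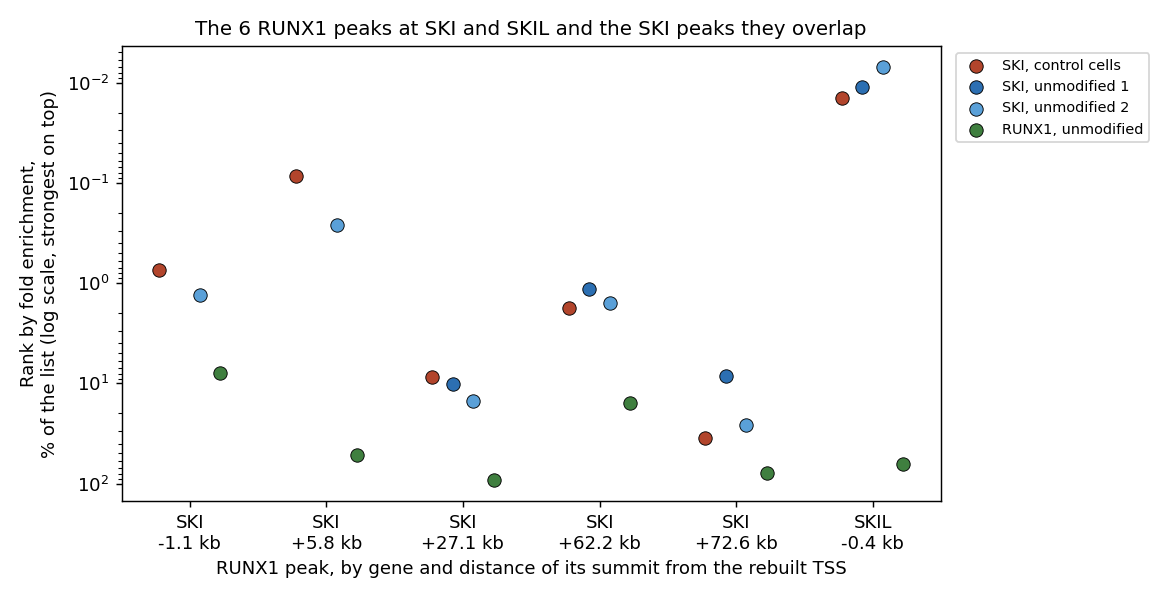
The 6 RUNX1 peaks at SKI and SKIL (x, by distance of the RUNX1 summit from the rebuilt TSS) with the rank of the RUNX1 peak and of each overlapped SKI peak as a percentage of its list (y, log scale, strongest on top). Unmodified cells, replicate 1, have no point at the 2 positions where row numbers are skipped. On this log scale SKIL shows the widest gap, from 0.00693% for SKI to 64.5% for RUNX1. In percentage points the gap at 27 kb is wider, from 8.72% for SKI in control cells to 93.3% for RUNX1.

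The distance between the summits of SKI and RUNX1 varied by site and by list. At the upstream site they were 4 bp apart in control cells and 24 bp in unmodified cells, replicate 2. At 62 kb they were 6 bp apart in control cells, and 162 and 26 bp in unmodified cells. At 72 kb the distances were 16 bp in control cells, and 53 and 22 bp in unmodified cells.

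At 27 kb the distance was 160 bp in control cells, and 425 and 186 bp in unmodified cells, and at SKIL it was 26 bp in control cells, and 196 and 123 bp in unmodified cells. Near 6 kb it was 248 bp in control cells and 10 bp in replicate 2. Over all overlapping pairs the median distance was 36 bp for control cells, and 28 and 35 bp for unmodified cells.

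No peak between the outermost peaks of SKI, or between those of SKIL, was assigned to another gene in any list. Distances to neighbours were counted from the outermost peak of the gene over all 4 lists, not from the peaks of the same list. These ends were 2158661 and 2243312 for SKI, and 170070675 and 170079202 for SKIL. The first SKI peak of unmodified cells, replicate 1, itself starts at 2171564, 34289 bp past its C1orf86 peak. Upstream of SKI the nearest SKI peaks were assigned to C1orf86, 31706 bp away with a fold enrichment of 6.27 in control cells. In unmodified cells they were 21386 and 31744 bp away, with 9.19 and 12.8. Downstream, unmodified cells, replicate 1, had a peak at RP4-713A8.1, 2496 bp past the last SKI peak with a fold enrichment of 17.2, and the other SKI lists had their next peak 234158 and 79702 bp away. The nearest RUNX1 peak upstream, at PRKCZ, was 75558 bp away with 29.5. In unmodified cells, replicate 1, a peak at RP11-543D10.2 with 21.3 lay 1895 bp from the first SKIL peak. Around SKIL the nearest SKI peak of control cells was 51022 bp away at PRKCI, with 8.70, and the nearest RUNX1 peak, also at PRKCI, was 130436 bp away with 19.1.

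Likeness to other genes was measured over 13808 protein-coding genes as the distance over 4 values, each from another list. Each value was the percentile of the strongest peak of a gene among the protein-coding genes with a peak in that list. A gene with no peak there had percentile 0. Nearest to SKI were AC018816.3 (1.41 percentile points), TSR2 (1.75) and SH3KBP1 (2.14). Nearest to SKIL were DNAH14 (4.43), FOS, an AP-1 transcription factor gene (5.65), and SC5D, a gene of cholesterol synthesis (6.33). At FOS the strongest SKI peaks were 78.2 in control cells, and 141 and 60.1 in unmodified cells, and the strongest RUNX1 peak was 15.9. SKI differed from SKIL mainly in RUNX1, at percentile 89.7 against 27.3 among the 2360 protein-coding genes with a RUNX1 peak.

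Both members had a peak in all 4 lists, as 12.6% of the protein-coding genes named in any list did. A peak was listed at 44.4% of these genes in control cells, at 98% and 45.9% in unmodified cells, and at 17.1% for RUNX1.

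Genes of the pathway around SKI and SKIL were read from 6 lists with 27 further members, grouped by role. Of these 27, 17 had a peak in all 3 SKI lists, beside 34.1% of the protein-coding genes named in any list. A promoter peak, within 1000 bp of a TSS, was in all 3 lists at 13 of them, beside 22.4%. A RUNX1 peak was at 8 of the 27, beside 17.1%. No gene of the lists had a stronger SKI peak than SKIL in any SKI list. Among the list genes with a peak, SKI ranked 3 in each of them and 1 in the RUNX1 list.

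Among 5 further relatives of SKI and SKIL, only DACH1 had a promoter peak in all 3 SKI lists. Its strongest SKI peaks were 14.9 in control cells, and 54.9 and 10.2 in unmodified cells, and its RUNX1 peak was 27.9. SKOR1, a corepressor mainly of the nervous system, had values of 12.6 in control cells, and 59.6 and 11.6 in unmodified cells, and a RUNX1 peak of 22.6. All 3 SMAD partners had promoter peaks in every SKI list. SMAD3 was the strongest of them, with 24.8 in control cells, and 87.2 and 19.6 in unmodified cells, and a RUNX1 peak of 26.8. SMAD2 had a RUNX1 peak of 19.6, and its SKI peaks reached 13.7 in control cells, and 48.1 and 7.54 in unmodified cells. SMAD4, the shared partner of the receptor-driven SMADs, reached 6.91 in control cells, and 47.1 and 8.34 in unmodified cells, with no RUNX1 peak listed.

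Of 4 corepressor partners, SIN3A and HDAC1 had promoter peaks in all 3 SKI lists, and none of the 4 had a RUNX1 peak listed. SIN3A, a scaffold of histone deacetylase complexes, reached 15.1 in control cells, and 97.4 and 38.6 in unmodified cells. HDAC1, which encodes a histone deacetylase, reached 11.1 in control cells, and 21.0 and 5.69 in unmodified cells.

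Of 4 genes of the ubiquitin machinery tied to the turnover of SKI or SKIL protein, RNF111, SMURF2 and TRIM33 had promoter peaks in every SKI list. The strongest were 12.9, 12.9 and 7.44 in control cells, and 29.9, 53.7 and 34.4 in unmodified cells (replicate 1). Replicate 2 gave 13.7, 15.7 and 7.31. RNF111 also had a RUNX1 peak, of 18.1.

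Of 7 feedback inhibitors, SMAD6, which limits signals of the TGF-beta family, came nearest to SKIL. It had promoter peaks in all 3 SKI lists, the strongest peaks being 175.8 in control cells, and 128 and 157 in unmodified cells, and no RUNX1 peak was listed. SMAD7, which blocks the receptors, had 12 SKI peaks in control cells, and 7 and 10 in unmodified cells, the strongest being 114, 50.5 and 40.5, and 6 RUNX1 peaks of up to 21.5. BAMBI, a decoy receptor gene, reached 15.2 in control cells, and 113 and 19.9 in unmodified cells. TGIF1, a repressor gene whose product binds SMADs, reached 3.73 in control cells, and 27.1 and 37.5 in unmodified cells, with a RUNX1 peak of 8.24.

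SKI peaks of control cells and replicate 2 without a counterpart in replicate 1 numbered 21 over all list genes. They were at SKI (9), SMAD7 (9) and TGIF1 (3), and all 21 lay where row numbers are skipped. Of 4 ligand and receptor genes, TGFB1 reached 33.7 in control cells, and 61.9 and 12.9 in unmodified cells. TGFBR1 reached 13.2 in control cells, and 81.1 and 15.8 in unmodified cells, with a RUNX1 peak of 22.6.

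**Figure D5:**
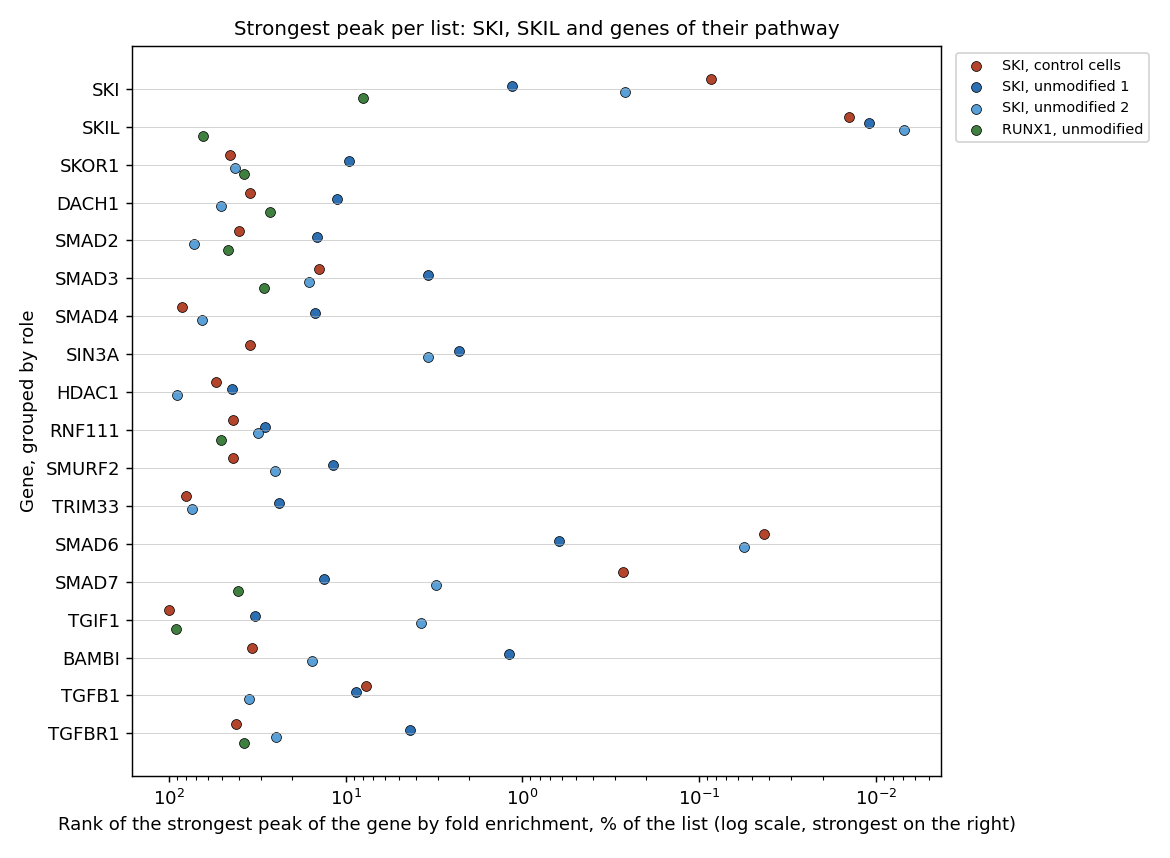
Rank of the strongest peak per gene as a percentage of its list (x, log scale, strongest on the right) for SKI, SKIL and the 16 other genes named by rule (y, grouped by role), 1 point per list and none where a list has no peak. SKIL is the gene farthest right for SKI in all 3 lists, at 0.0143%, 0.0109% and 0.00693%, followed by SMAD6, and its RUNX1 point is at 64.5%.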

How the data were processed

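Peak lists of 4 samples were used. Per the labels' protocols, chromatin was crosslinked with formaldehyde, sonicated and immunoprecipitated. The submitters' processing notes name bcl2fastq, Bowtie2, MACS 1.4 and deepTools with hg19 and GRCh37, without their roles. The control library of each peak call is not given in the sources used here. The deposited columns, per the file headers, hold −log10 p-values, fold enrichment (a ratio to background) and tag counts for each peak. The −log10 p-values started at about 5.00, and many peaks share the value 310. Fold enrichment is the authors' value and was ranked within a list only, ties sharing the best rank.

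SKI peaks sharing 1 bp or more became 1 site. TSSs were rebuilt as the median of summit minus deposited distance over the peaks of a transcript, and the 2 differed by a median of 10 to 19 bp per list. Coordinates are printed as listed. Position class and gene come from the authors. Members, gene lists and alternatives were chosen with earlier results of these data known. Named pathway genes are those with a promoter peak in all 3 SKI lists or a RUNX1 peak, and 3 genes per member were named for likeness. Of the pathway lists, 1 gene is not reported here and is in no count. Joins and overlaps were tested on simulated data. No column of per-sample values from other samples was used. Computation used pandas 2.3.3, numpy 2.4.6, scipy 1.17.1 and matplotlib 3.10.9 under Python 3.11.15.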

Additional observations from a re-analysis of the deposited data

How the results depend on the processing

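Of 72 alternative values for 28 results, 52 stayed within 1.5 times of the reported value and 20 moved beyond it, and all were planned. The counts of RUNX1 peaks with a SKI peak, 5 at SKI and 1 at SKIL, were the same under all 6 alternatives tried for them. Leaving out 1 SKI list could not change them, because each RUNX1 peak overlaps control cells and replicate 2. A −log10 p cut of 10 could not either, since these RUNX1 peaks and the SKI peaks they overlap had 25.3 or more. Only an overlap of 50% of the shorter peak and summits within 250 bp could have changed them. The cause of a move was not tested unless given. When lists were shortened to 5581 peaks by −log10 p, which leaves fewer peaks, unmodified cells, replicate 1, kept 4 at SKI and 1 at SKIL. Taking every peak within 50 kb of a TSS gave 12 at SKI in that list, some of them assigned to neighbouring genes. Leaving out 1 SKI list at a time gave 4 to 8 sites at SKI shared by the remaining lists, with 8 in the absence of unmodified replicate 1.

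The peak of highest fold enrichment was followed under other rankings. By −log10 p, where ties at 310 share a rank, that of SKI was at 314 and 4 in the lists of unmodified cells and at 776 for RUNX1. By tags it was at 215, 4 and 1073, and at 2 in control cells. Other peaks of SKI then ranked higher, the best by −log10 p at 157 in replicate 1 and 20 for RUNX1, and by tags at 194 and 135. That of SKIL ranked 16 by −log10 p in control cells, and 314 and 4 in unmodified cells, and 5 by tags in control cells. Counting peaks within 10 kb of a TSS, SKI ranked 4 among genes in control cells, 7 in unmodified cells, replicate 2, and 6 for RUNX1, and SKIL ranked 985 in replicate 1 and 391 for RUNX1.

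No paired analysis was possible because each list is 1 sample and the groups share fewer than 2 replicate numbers. RUNX1 and control-cell SKI rest on 1 list each, library depth is unknown, and the skipped row numbers of replicate 1 limit what its missing peaks show.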

Other observations

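Of the 27 pathway genes, 11 had neither a promoter peak in all 3 SKI lists nor a RUNX1 peak, and they were named after their values were seen. SKOR2 and PMEPA1 had no peak assigned to them in any of the 4 lists. SKIDA1, DACH2, NCOR1, HDAC3, FZR1 and TGFBR3 had SKI peaks assigned to them in unmodified cells, replicate 1, alone, with strongest fold enrichments of 44.6, 11.7, 40.7, 14.2, 21.9 and 36.1. TGIF2 had assigned SKI peaks in replicate 2 alone, although 1 of its sites held peaks of all 3 SKI lists. TGFBR2 had them in both lists of unmodified cells, and SMURF1 in all 3 SKI lists, without a promoter peak in control cells or in replicate 2.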
